A study of Eisenia fetida with 15 samples.

Results

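The peroxiredoxins, thioredoxins and glutaredoxins of the earthworm *Eisenia fetida* were followed across 15 RNA libraries of a lindane soil test. Members were the unigenes (assembled transcripts) whose best protein match is named peroxiredoxin, thioredoxin or glutaredoxin, leaving out domain-containing names, and of these the 10 with the highest mean FPKM over the 15 libraries. FPKM is the authors' read density, scaled for unigene length and library depth. Of 241846 unigenes 36 had such a name, and the 10 kept were 5 peroxiredoxins, 3 thioredoxins, 1 glutaredoxin and 1 thioredoxin reductase. Members were thus chosen by their mean FPKM, so levels are described without a test, and tests below are of differences between conditions. The last unigene inside the limit had a mean of 12.5 FPKM (Thioredoxin reductase 1, contig_51658), and the first outside had 8.68 FPKM (Thioredoxin-dependent peroxide reductase, mitochondrial, contig_67925).

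Lindane is an organochlorine insecticide, and *Eisenia fetida* is a compost worm used in soil toxicity tests. Per the labels, adult worms were kept for 7 d or 28 d in soil spiked to a nominal 2.4 mg/kg lindane, either freshly spiked or aged for 30 d beforehand, and worms without exposure were sampled at 0 d. RNA came from body sections, and each of 5 conditions has 3 libraries, called a triplet here. The labels do not tell separate worms, pooled worms or repeat libraries apart, so a p-value here reflects the spread of libraries alone, which may be technical.

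Each triplet carries both a code and a treatment text, and these name different conditions. The code gives soil aging and then exposure, as in 30d-7d (7 d in soil aged 30 d), or it reads control. By the treatment text, the triplet coded 0d-7d is the 0 d group, the triplet coded 0d-28d had 7 d in fresh soil, the triplet coded 30d-7d had 28 d in fresh soil, the triplet coded 30d-28d had 7 d in aged soil, and the triplet coded control had 28 d in aged soil. Groups are named by code below, and all 10 pairs of triplets were compared, so that the comparisons of either naming are included. Under the code the 4 groups other than control share the lindane soil, and lindane cannot be told apart from the time spent in soil. Under the treatment text the unexposed worms are those coded 0d-7d.

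Peroxiredoxins are thiol enzymes that reduce hydrogen peroxide and organic hydroperoxides. Thioredoxin, a small protein with a reactive pair of cysteines, returns many of them and other oxidized proteins to the reduced state, and thioredoxin reductase recharges thioredoxin with electrons from NADPH. Glutaredoxins do similar work with glutathione as the electron source, and they also handle proteins coupled to glutathione. The system is present in nearly all animal tissues and is a usual subject of oxidative stress studies.

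Depth ran from 13182058 to 28022746 reads per library, and the edgeR test took in 101090 unigenes, all 10 members among them. 0d-28d library 3 stood apart. Its summed FPKM over 23 unigenes named for globins, the blood pigments, was 18.5, against 3083 to 27758 in the 14 other libraries, while 59 unigenes named for germ line or sperm proteins summed to 1270, against 101 to 298. That library is named wherever a result rests on it. In bulk RNA such as this, fewer cells of a type and less RNA per cell cannot be told apart.

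Peroxiredoxin 6 (contig_9023, 646 bases, matched in the lugworm *Arenicola marina*) was the most abundant member. In mammals this enzyme reduces hydrogen peroxide and oxidized phospholipids, with glutathione as the electron source. Its FPKM was 102.0, 131.2 and 215.7 in control libraries 1 to 3, 256.9, 170.5 and 116.8 in 0d-7d, and 165.8, 222.4 and 69.2 in 0d-28d. In 30d-7d it was 165.7, 164.8 and 122.3, and in 30d-28d 123.9, 164.0 and 166.3. The highest library was 0d-7d library 1 and the lowest 0d-28d library 3, and every triplet overlapped every other. Triplet means lay between 150 ± 59.0 FPKM in control and 181 ± 70.7 in 0d-7d (SD, n = 3). Triplets took 5.93% of the variance of log2(FPKM + 1) over libraries, where the median unigene tested had 25.3%. By the degrees of freedom alone, 28.6% falls between triplets on average when conditions do not differ. The 10 comparisons gave log2 changes of -0.36 to 0.27, and their 95% intervals reached from -1.31 to 1.22 (edgeR, lowest adjusted p = 0.969). Differences of up to about 1 log2 unit in either direction lay within these intervals.

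A second unigene named Peroxiredoxin 6 (contig_56297, 1125 bases, matched in the abalone *Haliotis discus discus*) was lower, with a mean of 14.7 FPKM. It stood at 20.1, 14.997 and 11.2 FPKM in control and at 14.2, 14.9 and 15.8 in 0d-7d. In 0d-28d it had 15.2, 8.83 and 6.53 FPKM, in 30d-7d 18.4, 21.3 and 12.1, and in 30d-28d 12.7, 16.9 and 17.8. The lowest values were those of 0d-28d libraries 2 and 3, but library 1 of that triplet lay within the range of the others, so no triplet stood clear. The largest of its 10 differences was 30d-28d against 0d-28d, a log2 change of 0.57 (SE 0.359, 95% interval -0.21 to 1.35, edgeR adjusted p = 0.852). Without 0d-28d library 1, the highest of the lower triplet, this difference was 1.03, and its values under other omissions are not given here.

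Peroxiredoxin 5 was represented by 3 unigenes, contig_4990 (585 bases), contig_43249 (527 bases) and contig_4991 (492 bases), all matched in *Arenicola marina*. In mammals this peroxiredoxin is found in mitochondria, peroxisomes and the cytosol and is reduced by thioredoxin. contig_4990 had 96.7, 47.2 and 64.6 FPKM in control, 97.3, 46.2 and 101.7 in 0d-7d, 79.6, 47.5 and 78.9 in 0d-28d, 79.4, 85.6 and 47.2 in 30d-7d, and 56.6, 82.3 and 72.8 in 30d-28d. Its range was the narrowest among the members, 2.20-fold from lowest to highest, and in each of the 4 triplets other than 30d-28d a library near 47 FPKM stood beside others that were higher. contig_43249 had 65.6, 39.7 and 31.4 FPKM in control, 73.6, 33.4 and 73.7 in 0d-7d, 46.2, 23.4 and 60.4 in 0d-28d, 41.3, 82.5 and 33.2 in 30d-7d, and 43.5, 58.9 and 53.8 in 30d-28d. It was below contig_4990 in all 15 libraries, and its triplets overlapped throughout.

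contig_4991 was distributed over the libraries in another way than the other Peroxiredoxin 5 unigenes. Its FPKM was 15.8, 49.95 and 43.3 in control, 47.0, 38.5 and 20.4 in 0d-7d, 33.6, 53.1 and 15.2 in 0d-28d, 39.5, 69.6 and 51.6 in 30d-7d, and 28.3, 38.1 and 29.8 in 30d-28d. All 30d-7d libraries were above all 30d-28d libraries, and the other pairs of triplets overlapped. By reads scaled for length and depth alone, 30d-7d library 1 had 19.5 and 30d-28d library 2 had 31.4, so this pair overlapped too. The log2 change of 30d-28d against 30d-7d was -0.38 (SE 0.543, 95% interval -1.56 to 0.79, edgeR adjusted p = 1). As a share of the summed FPKM of the 3 unigenes, contig_4991 took from 8.86% in control library 1 to 42.8% in 0d-28d library 2. The ratio of contig_43249 to contig_4990 moved less, from 0.486 to 0.964, while that of contig_4991 to contig_4990 ran from 0.163 to 1.117. The sum of the 3 was 151 ± 23.2 FPKM in control, 177 ± 52.4 in 0d-7d, 177 ± 54.8 in 30d-7d, 146 ± 19.2 in 0d-28d and 155 ± 25.5 in 30d-28d (SD, n = 3). Unigenes that share a name may be parts or alleles of a gene, and how shared reads were assigned is not given in the sources used here, so the split between them is uncertain.

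**Figure D1:**
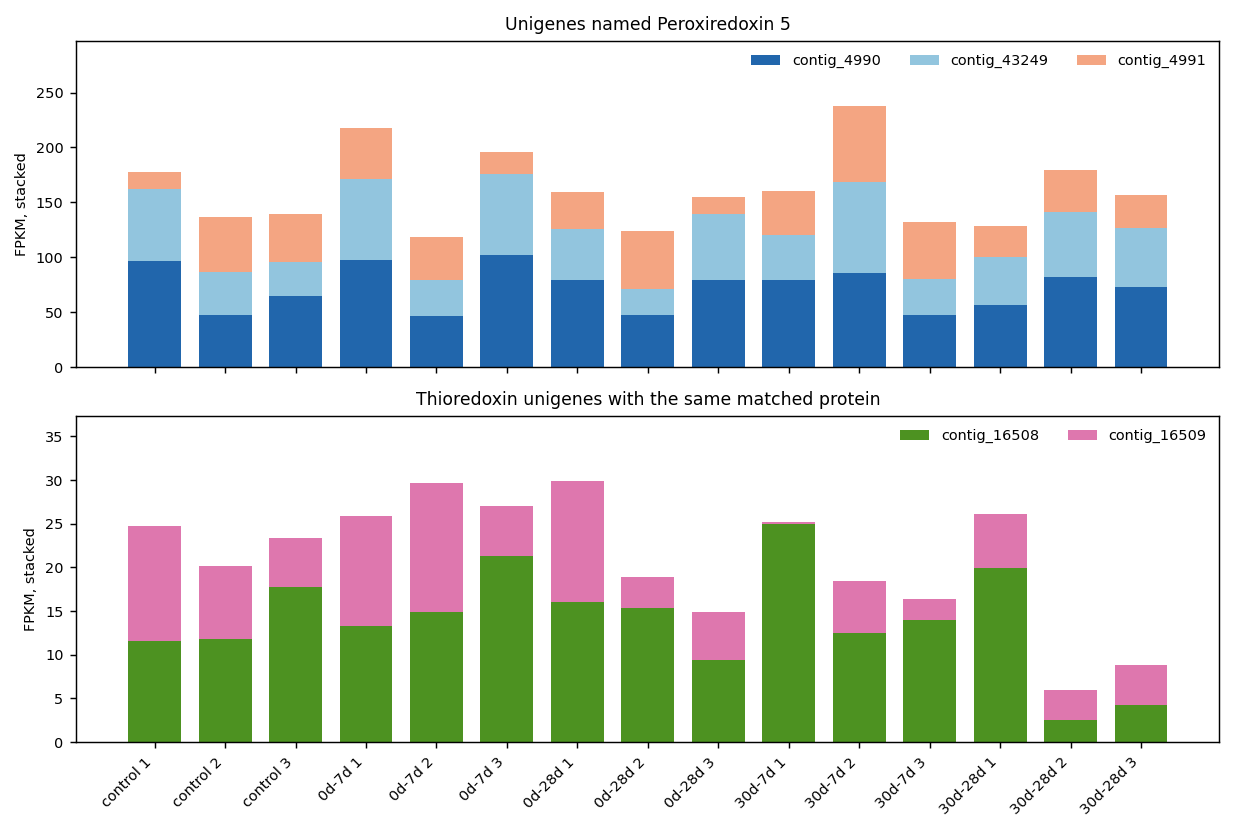
FPKM of same-named unigenes, stacked, in each of the 15 libraries (x axis, code and library number). The upper panel holds the 3 unigenes named Peroxiredoxin 5, among which contig_4991 takes 8.86% to 42.8% of the sum. The lower panel holds the thioredoxins contig_16508 and contig_16509, where contig_16509 nearly vanishes in 30d-7d library 1 and both are low in 30d-28d libraries 2 and 3.

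The most abundant thioredoxin (contig_9594, 1308 bases, matched in the sea squirt *Ciona savignyi*) was the member with the largest share of its variance between triplets, 53.3%. It had 89.5, 26.7 and 60.2 FPKM in control, 71.7, 33.0 and 71.3 in 0d-7d, 29.9, 24.8 and 16.4 in 0d-28d, 49.3, 70.5 and 48.9 in 30d-7d, and 33.4, 46.2 and 29.2 in 30d-28d. All 0d-28d libraries lay below all 0d-7d and all 30d-7d libraries, and all 30d-28d libraries lay below all 30d-7d libraries. By reads scaled for length and depth alone, 30d-28d library 2 had 41.3 and 30d-7d library 1 had 33.3, so 30d-28d and 30d-7d overlapped. Control library 2, at 26.7 FPKM, kept control from standing clear of 0d-28d. Means were 58.8 ± 31.4 FPKM in control, 58.7 ± 22.2 in 0d-7d, 56.3 ± 12.3 in 30d-7d, 23.7 ± 6.80 in 0d-28d and 36.3 ± 8.82 in 30d-28d (SD, n = 3). Against control the 0d-28d triplet gave a log2 change of -1.23 (SE 0.452, 95% interval -2.22 to -0.25, edgeR unadjusted p = 0.0177, adjusted p = 0.591). Against 0d-7d it gave -1.16 (SE 0.451, edgeR adjusted p = 0.530), and 30d-7d against 0d-28d gave 1.10 (SE 0.451, edgeR adjusted p = 0.789). None of these passed the threshold of 0.05. Without 0d-28d library 3 the 3 values were -1.10, -1.02 and 0.97.

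Another thioredoxin, contig_16508 (1364 bases, matched in the clam *Ruditapes philippinarum*), had a mean of 13.97 FPKM. It stood at 11.6, 11.8 and 17.8 FPKM in control, 13.2, 14.9 and 21.3 in 0d-7d, 15.998, 15.4 and 9.39 in 0d-28d, 24.9, 12.5 and 13.98 in 30d-7d, and 20.0, 2.58 and 4.22 in 30d-28d. The lowest values were those of 30d-28d libraries 2 and 3, while library 1 of the same triplet was among the higher ones. The log2 change of 30d-28d against control was -0.65 (SE 0.601, 95% interval -1.95 to 0.66, edgeR adjusted p = 1). Leaving out 1 library at a time gave -1.96 to -0.21, with -1.96 without 30d-28d library 1. contig_16509 has the same matched protein and ranked below the 10. Of the joint FPKM of both, contig_16508 took from 43.1% in 30d-28d library 2 to 99.0% in 30d-7d library 1, and the sum was lowest in 30d-28d library 2 at 5.99 FPKM and highest in 0d-28d library 1 at 29.9 FPKM.

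Thioredoxin reductase 1 (contig_51658, 504 bases, matched in the clam *Corbicula fluminea*) had 13.3, 12.02 and 11.4 FPKM in control, 9.36, 14.02 and 2.95 in 0d-7d, 7.55, 11.3 and 34.2 in 0d-28d, 20.8, 7.22 and 12.1 in 30d-7d, and 9.73, 10.9 and 9.99 in 30d-28d. It was highest in 0d-28d library 3 and lowest in 0d-7d library 3, and all 30d-28d libraries were narrowly below all control libraries. That last difference was a log2 change of -0.29 (SE 0.605, 95% interval -1.60 to 1.03, edgeR adjusted p = 1). The largest, 0d-28d against 0d-7d, was 1.15 (SE 0.614, edgeR adjusted p = 0.585) and came to 0.24 without 0d-28d library 3.

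**Figure D2:**
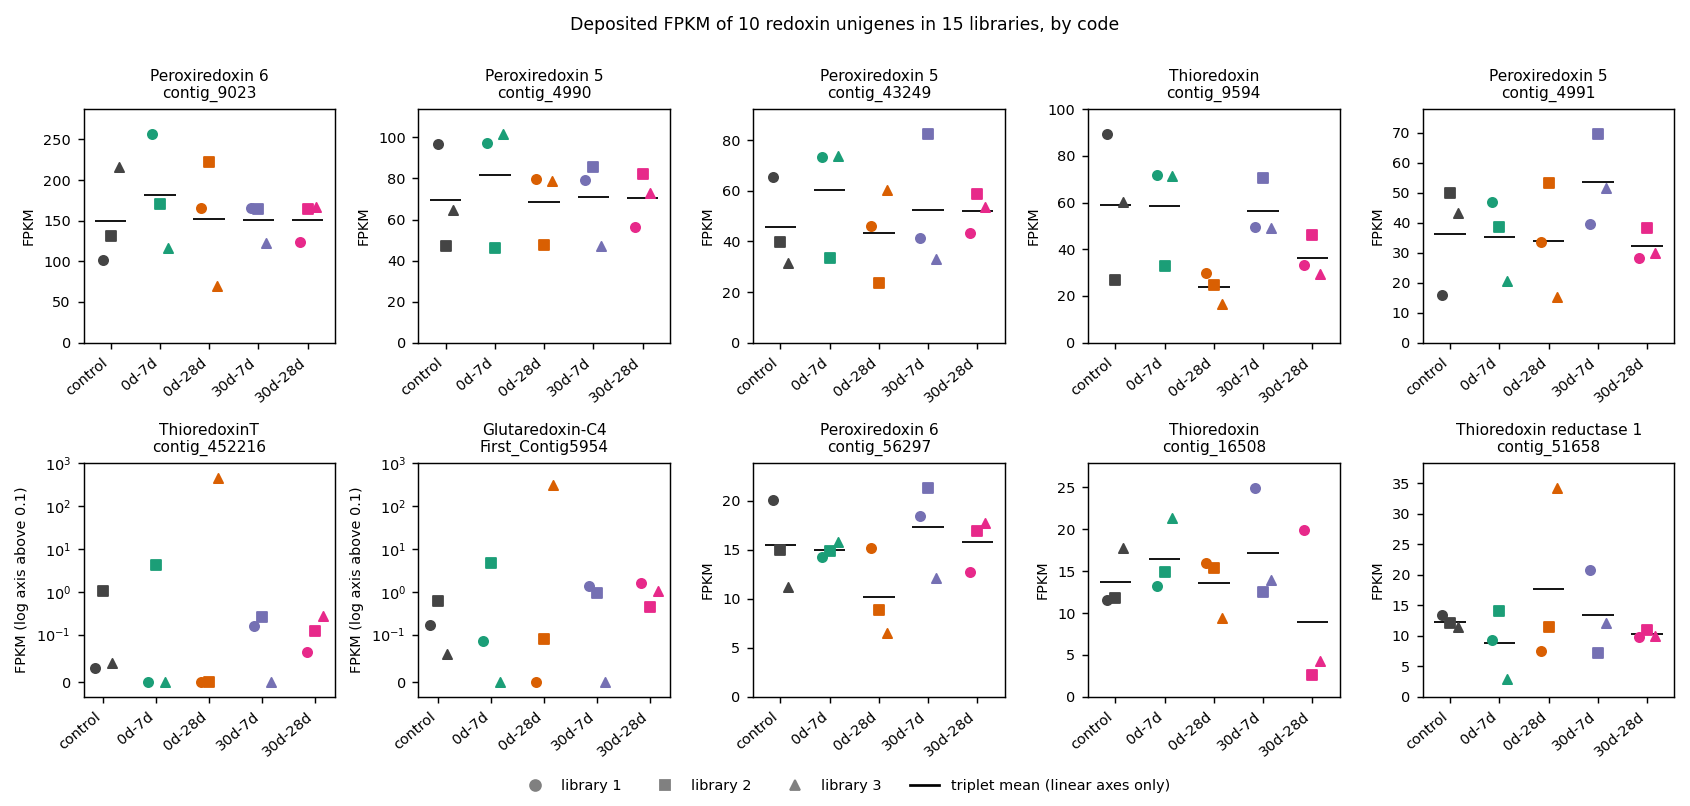
FPKM of the 10 members (y axes, each panel on its own scale) in the libraries of each code (x axis). Points are libraries, with the shape giving the library number, and bars are triplet means. ThioredoxinT and Glutaredoxin-C4 are drawn on a log axis and reach 455 and 300 FPKM in 0d-28d library 3, with no other library above 4.58 FPKM.

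ThioredoxinT and Glutaredoxin-C4 owed their place among the 10 to a single library. In *Drosophila*, ThioredoxinT is a thioredoxin of the testis. The unigene of that name (contig_452216, 1089 bases, matched in *Drosophila yakuba*) had 0.030, 1.02 and 0.041 FPKM in control, 0, 4.26 and 0 in 0d-7d, 0, 0 and 455 in 0d-28d, 0.158, 0.265 and 0 in 30d-7d, and 0.063, 0.124 and 0.274 in 30d-28d. 0d-28d library 3 held 5929 of its reads and the next library, 0d-7d library 2, held 70. Glutaredoxin-C4 (First_Contig5954, 921 bases, matched in the plant bug *Lygus hesperus*) had 0.172, 0.600 and 0.059 FPKM in control, 0.087, 4.58 and 0 in 0d-7d, 0, 0.091 and 300 in 0d-28d, 1.40, 0.929 and 0 in 30d-7d, and 1.59, 0.441 and 1.06 in 30d-28d. It had 2849 reads in 0d-28d library 3 and at most 54 elsewhere. That library held 98.6% of the summed FPKM of ThioredoxinT and 96.5% of that of Glutaredoxin-C4. For both, the other 0d-28d libraries were at or near 0, so the 0d-28d triplet overlapped every other triplet.

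The fitted changes of this pair rested on the same library. Against control, 0d-28d gave a log2 change of 8.86 for ThioredoxinT (SE 3.48) and of 8.54 for Glutaredoxin-C4 (SE 3.11). These are descriptions, since the library that makes them high also brought both unigenes into the 10. Without 0d-28d library 3 the values were -5.79 and -2.56. For ThioredoxinT both libraries then left had 0 reads, so that value depends on the constant added before taking logs and is no estimate of a fold. Of the 24 redoxin unigenes tested, 3 had over 90% of their summed FPKM in 0d-28d library 3, against 0.333% of all unigenes tested. ThioredoxinT and Glutaredoxin-C4 are among these 3, so the count partly restates how they were chosen and is not read as an excess of redoxins. The additional unigene was Thioredoxin contig_430042, just outside the 10, with 124 FPKM there and at most 2.47 FPKM elsewhere. By contrast, 4 members had their lowest value in that library, namely Peroxiredoxin 6 contig_9023, Thioredoxin contig_9594, Peroxiredoxin 5 contig_4991 and Peroxiredoxin 6 contig_56297. The share of all unigenes tested that were lowest there is not given here, so this count is not read as a trait of these members.

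Several tissue marker lists also had extreme sums in 0d-28d library 3. Outside it, 0d-7d library 2 was highest for ThioredoxinT and Glutaredoxin-C4, with a germ line and sperm sum of 107 FPKM. The highest such sum outside it, 298 FPKM in 30d-7d library 1, stood beside 0.158 FPKM of ThioredoxinT and 1.40 FPKM of Glutaredoxin-C4. The summed FPKM of the germ line and sperm list ranged from 120 to 194 in control, 107 to 165 in 0d-7d, 101 to 298 in 30d-7d, 197 to 1270 in 0d-28d and 116 to 185 in 30d-28d. In 0d-28d library 3, 22 of its 44 tested unigenes were at their highest, as were 11.9% of all unigenes tested. PIWI1 (First_Contig345), a germ line protein that guards against transposons, had 288 FPKM there and at most 5.79 FPKM elsewhere, and Vasa (contig_344621), a germ line RNA helicase, had 20.7 FPKM and at most 0.798 FPKM elsewhere. Of the 11 unigenes named for PIWI, vasa or nanos 4 were at their highest there, while Piwi1 (contig_89425) had 3.30 FPKM beside a median of 6.59 in the other libraries and others were highest in 30d-7d library 1. The most abundant unigene of the list, Outer dense fiber protein 3 (contig_3650), a sperm tail protein, was at its lowest there, at 3.18 FPKM beside a median of 22.7. Of the 59 unigenes of the list 5 were at 0 in that library, none of them among these 11. The summed globin list ranged from 3083 to 19771 FPKM in control, 4697 to 27758 in 0d-7d, 9865 to 16743 in 30d-7d, 18.5 to 15251 in 0d-28d and 4943 to 7963 in 30d-28d, and 17 of its 18 tested unigenes were at their lowest in 0d-28d library 3. The coelomocyte list, named for immune effectors of the body cavity, summed to 712 FPKM there and to 1809 or more elsewhere, and body wall muscle to 1109 FPKM there and to 1185 or more elsewhere. The gut list, at 529 FPKM there, ran from 207 to 82130 FPKM in the other libraries. The part of tissue content in the redoxin values was not tested.

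**Figure D3:**
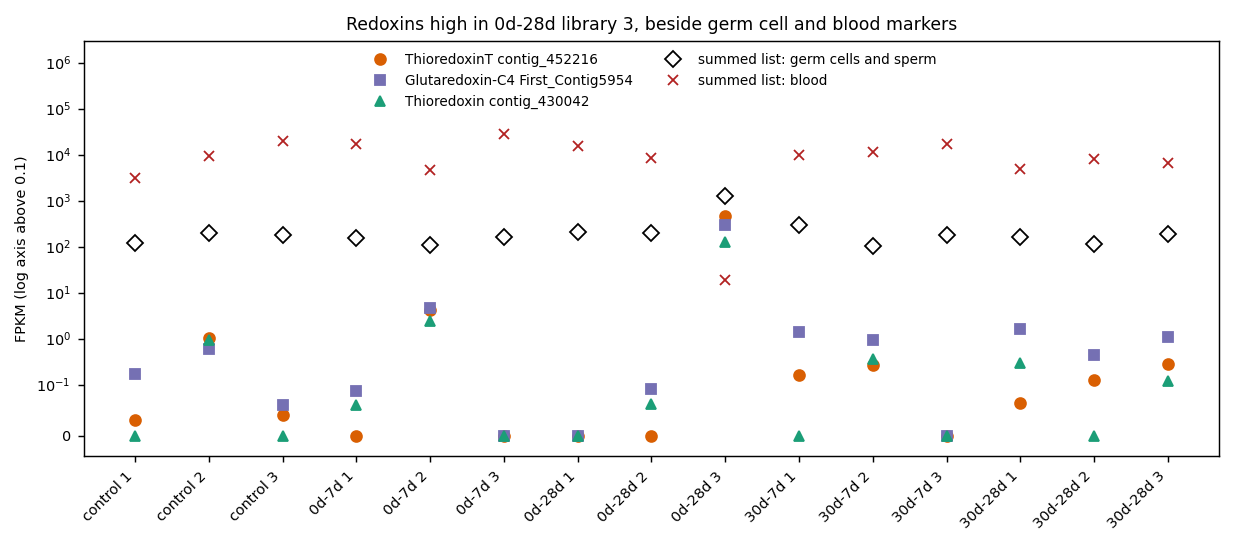
FPKM (y axis, log scale above 0.1) of ThioredoxinT, Glutaredoxin-C4 and Thioredoxin contig_430042 in each library (x axis), with the summed FPKM of the germ cell list and the blood list. In 0d-28d library 3 the 3 redoxins and the germ cell sum are at their highest and the blood sum, at 18.5 FPKM, at its lowest.

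In order of mean level, Peroxiredoxin 6 contig_9023 was above Peroxiredoxin 5 contig_4990 in 14 of 15 libraries, the exception being 0d-28d library 3. The means of this pair differed by 84.9 FPKM, more than the SD over libraries of either. contig_4990 was above contig_43249 by 21.5 FPKM, also more than either SD. Below them, Peroxiredoxin 5 contig_43249, Thioredoxin contig_9594 and Peroxiredoxin 5 contig_4991 had means of 50.7, 46.7 and 38.2 FPKM and neighbours did not differ beyond their SDs. The same held for Peroxiredoxin 6 contig_56297, Thioredoxin contig_16508 and Thioredoxin reductase 1 contig_51658, at 14.7, 13.97 and 12.5 FPKM. ThioredoxinT and Glutaredoxin-C4, ranked between these sets by their means of 30.8 and 20.7 FPKM, had medians of 0.063 and 0.441 FPKM. Ranked by the median, 8 of the 10 were kept and these 2 fell to places 27 and 17.

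The 8 other members varied moderately over libraries. Their coefficients of variation ran from 27.1% for Peroxiredoxin 5 contig_4990 to 57.4% for Thioredoxin reductase 1, where the median of unigenes tested with a mean of at least 5 FPKM was 51.8%. For 7 of the 10 members the share of variance between triplets was below the 25.3% of the median unigene tested. That median is itself below the 28.6% that the degrees of freedom alone give on average when conditions do not differ. The exceptions were Thioredoxin contig_9594, Peroxiredoxin 6 contig_56297 and Thioredoxin contig_16508, at 53.3%, 43.2% and 39.3%. The summed FPKM of the 8 was 401 ± 62.1 in control, 458 ± 113 in 0d-7d, 432 ± 86.6 in 30d-7d, 364 ± 63.8 in 0d-28d and 377 ± 46.3 in 30d-28d (SD, n = 3), so the means of the triplets differed by less than the largest SD within them.

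Across the 5 triplets, a comparison that does not depend on the naming, edgeR called 0 of 10 members at an adjusted p under 0.05, against 0.000989% of unigenes tested. At an unadjusted p under 0.05 (6.07% of unigenes tested) there were 2 members, ThioredoxinT and Glutaredoxin-C4. Both are among the 10 only through 0d-28d library 3, so their part in this count and in those of other comparisons with 0d-28d restates how they were chosen and is read as nothing more. Without that library 0 of 10 members had an edgeR unadjusted p under 0.05 in any of the 12 comparisons, Thioredoxin contig_9594 included. DESeq2 called 0 of the 8 members to which it gave an adjusted p, against 1.03% of all unigenes tested. This DESeq2 share and those below count all unigenes tested, also those without a DESeq2 adjusted p. The limma test on log2(FPKM + 1) called 0 of 10, against 0.00594%. DESeq2 gave no adjusted p to ThioredoxinT and Glutaredoxin-C4 in this and the following comparisons.

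The code makes 0d-7d against control the comparison of 7 d in fresh lindane soil. Log2 changes were above 0 in 6 of 10 members and had a median of 0.14, against -0.04 over all unigenes tested. Peroxiredoxin 6 contig_9023 gave 0.17 (SE 0.440, 95% interval -0.78 to 1.13), Thioredoxin contig_9594 -0.08 (SE 0.445, 95% interval -1.04 to 0.89) and Thioredoxin reductase 1 -0.67 (SE 0.609, 95% interval -1.995 to 0.65). The largest estimates were 2.36 for Glutaredoxin-C4 (SE 2.46, 95% interval -2.97 to 7.69) and 1.98 for ThioredoxinT (SE 2.65, 95% interval -3.78 to 7.73), both near 0 FPKM in most of these libraries. edgeR called 0 of 10 members (0.000989% of unigenes tested), with 0 at an unadjusted p under 0.05 (4.74%). DESeq2 called 0 (0.335%) and limma 0 (0.00495%). In no member were the triplets apart (8.49%).

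In 0d-28d against control, by the code 28 d in fresh soil, 3 members had an unadjusted p under 0.05, ThioredoxinT, Glutaredoxin-C4 and Thioredoxin contig_9594, the values of which are given above. Of unigenes tested 8.35% passed, and only contig_9594 was not chosen through this triplet. edgeR called 0 of 10 after adjustment (0.000989%), DESeq2 0 (0.861%) and limma 0 (0.00396%), and no member had triplets apart (10.8%). The 5 peroxiredoxins gave log2 changes of 0.09 (SE 0.439) for contig_9023, -0.02 (SE 0.387) for contig_4990, -0.28 (SE 0.495) for contig_43249, -0.11 (SE 0.542) for contig_4991 and -0.47 (SE 0.359) for contig_56297. The median over the 10 was 0.01, against 0.00034 over all unigenes tested.

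By the code, 30d-7d against control is 7 d in aged soil, and 4 of 10 members were positive with a median of -0.11, against -0.03 over all unigenes tested. Peroxiredoxin 6 contig_9023 gave -0.18 (SE 0.440) and Peroxiredoxin 5 contig_4990 -0.24 (SE 0.388), although their mean FPKM was not lower than in control. The count test and the deposited FPKM scale the libraries separately. edgeR called 0 of 10 (0.000989%), with 0 at an unadjusted p under 0.05 (3.5%), DESeq2 called 0 (0.305%) and limma 0 (0.00594%), and no triplets were apart (7.32%). In 30d-28d against control, by the code 28 d in aged soil, 4 of 10 were positive with a median of -0.12, against -0.04 over all. Thioredoxin contig_9594 gave -0.66 (SE 0.447, 95% interval -1.63 to 0.32). edgeR called 0 of 10 (0.000989%), with 0 at an unadjusted p under 0.05 (4.31%), DESeq2 called 0 (0.406%) and limma 0 (0.00297%). Thioredoxin reductase 1 was the 1 member of 10 with triplets apart (9.29%).

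**Figure D4:**
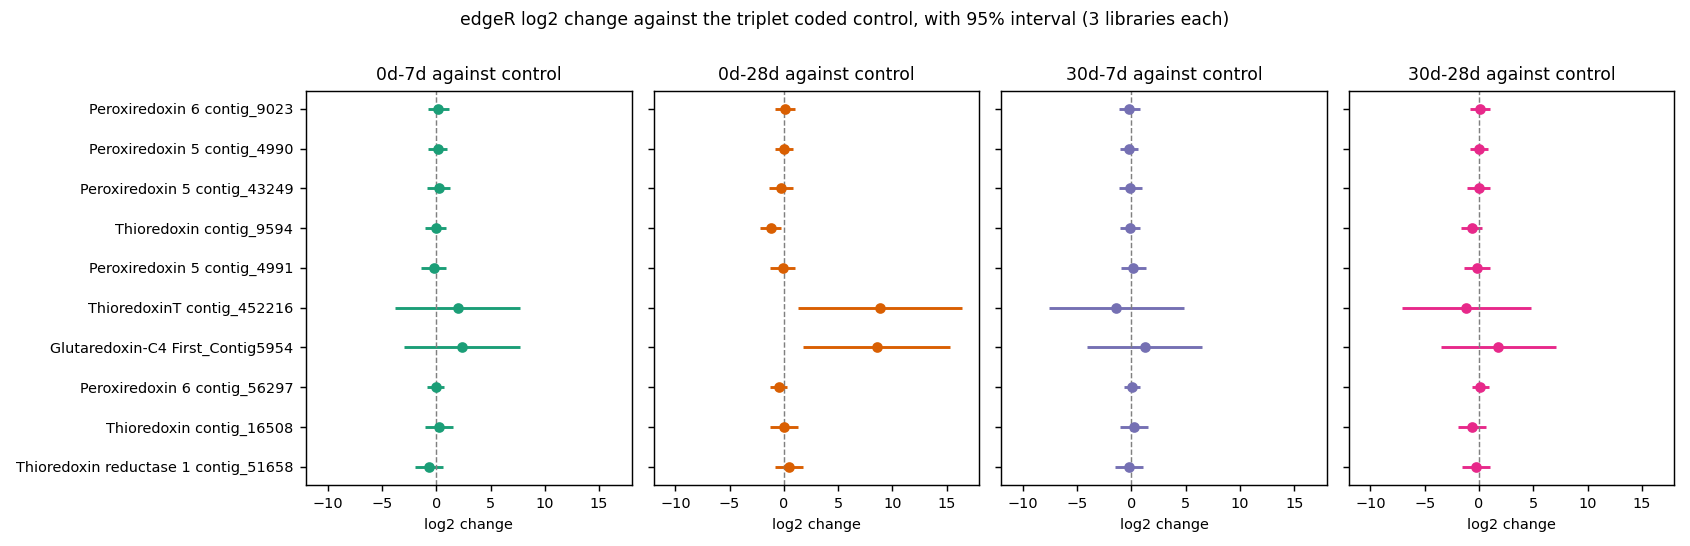
Log2 change of each member (y axis) against the triplet coded control (x axis) for the 4 other codes, from the edgeR fit. Points are estimates and lines 95% intervals, with 3 libraries per triplet. ThioredoxinT and Glutaredoxin-C4 have intervals many units wide, and those of the 8 other members span zero except for Thioredoxin contig_9594 in 0d-28d.

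The comparisons that the code reads as soil aging gave 0 called members as well. In 30d-7d against 0d-7d (aged against fresh soil at 7 d) edgeR called 0 of 10 (0%), with 0 at an unadjusted p under 0.05 (4.21%), DESeq2 called 0 (0.298%) and limma 0 (0.000989%), and no triplets were apart (8.38%). Peroxiredoxin 5 contig_4991 had 53.5 ± 15.1 FPKM against 35.3 ± 13.6 (SD, n = 3), a log2 change of 0.42 (SE 0.543, 95% interval -0.76 to 1.599). In 30d-28d against 0d-28d (aged against fresh at 28 d) edgeR called 0 of 10 (0%), and the 2 members at an unadjusted p under 0.05 were ThioredoxinT and Glutaredoxin-C4 (6.29%). DESeq2 called 0 (0.525%) and limma 0 (0.000989%), and no triplets were apart (9.31%). Thioredoxin contig_9594 gave 0.58 (SE 0.447, 95% interval -0.39 to 1.55) in this comparison. The test of whether the aging difference itself differed between 28 d and 7 d called 0 of 10 members with edgeR (0%), with 0 at an unadjusted p under 0.05 (5.6%), 0 with DESeq2 (0.485%) and 0 with limma (0%).

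For exposure time in fresh soil by the code, 0d-28d against 0d-7d, edgeR called 0 of 10 (0%), DESeq2 0 (0.856%) and limma 0 (0.00297%). At an unadjusted p under 0.05 stood 2 members, Glutaredoxin-C4 and Thioredoxin contig_9594 (9.09%), and contig_9594 was the 1 member with triplets apart (11.1%). By the treatment text this pair is 7 d in fresh soil against unexposed worms. In aged soil, 30d-28d against 30d-7d, edgeR called 0 of 10 (0%), with 0 at an unadjusted p under 0.05 (3.09%), DESeq2 called 0 (0.275%) and limma 0 (0%). The FPKM triplets of 2 members were apart, Thioredoxin contig_9594 and Peroxiredoxin 5 contig_4991 (8.02%), both lower in 30d-28d. By reads scaled for length and depth alone, the triplets of both overlapped, as given above. For contig_9594 the log2 change was -0.52 (SE 0.447, 95% interval -1.49 to 0.45).

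Of the remaining pairs, 30d-28d against 0d-7d is by the treatment text 7 d in aged soil against unexposed worms. edgeR called 0 of 10 (0%), with 0 at an unadjusted p under 0.05 (5.32%), DESeq2 called 0 (0.366%) and limma 0 (0.000989%), and no triplets were apart (10.4%). Thioredoxin contig_16508 gave -0.87 (SE 0.603, 95% interval -2.18 to 0.44). The pair 30d-7d against 0d-28d is by the treatment text 28 d against 7 d in fresh soil. edgeR called 0 of 10 (0%), DESeq2 0 (0.489%) and limma 0 (0.000989%), while 3 members were at an unadjusted p under 0.05 (6.28%), ThioredoxinT, Glutaredoxin-C4 and Thioredoxin contig_9594, of which contig_9594 had triplets apart (8.99%). Over all 10 pairs and the 8 members without ThioredoxinT and Glutaredoxin-C4, the 80 log2 changes lay between -1.23 and 1.15, and 4 exceeded 1 in size. Comparisons that share a triplet are not independent of each other.

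Few members went together over the libraries. Of 45 pairs correlated on log2(FPKM + 1) over the 15 libraries, 3 passed an adjusted p of 0.05 by Pearson's r and 2 by Spearman's rho. The Peroxiredoxin 5 unigenes contig_4990 and contig_43249 had Pearson's r = 0.85 (permutation adjusted p = 0.00315) and Spearman's rho = 0.85 (permutation adjusted p = 0.00292). It was 0.87 without the 2 libraries farthest from the median and 0.86 for deviations from triplet means. ThioredoxinT and Glutaredoxin-C4 had r = 0.98 (permutation adjusted p = 0.0115) and rho = 0.87 (permutation adjusted p = 0.0027). Without 0d-7d library 2 and 0d-28d library 3 r was 0.43 and rho 0.79, so the value of r rests on those libraries. Both unigenes are members only through 0d-28d library 3, where both are high. The r of this pair and its p thus restate how the pair was chosen. Its place among the 3 is read as nothing more, and the p of rho includes that library as well. Peroxiredoxin 6 contig_9023 and Peroxiredoxin 5 contig_4991 had r = 0.71 (permutation adjusted p = 0.0432) but rho = 0.54 (permutation adjusted p = 0.335), and r was 0.40 without control library 1 and 0d-28d library 3. No other pair passed 0.05 by either measure, and Peroxiredoxin 5 contig_4991 had r = -0.43 with contig_4990 (permutation adjusted p = 0.247) and r = -0.35 with contig_43249 (permutation adjusted p = 0.419).

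Among 3415 named unigenes tested with a mean of at least 5 FPKM, those most like Peroxiredoxin 6 contig_9023 over the 15 libraries were a pair named Tyrosine-protein kinase, contig_34318 (r = 0.92) and contig_30027 (r = 0.84), and a cGMP-dependent protein kinase, contig_61965 (r = 0.83). For Thioredoxin contig_9594 they were an interferon-induced guanylate-binding protein 1-like unigene, contig_44487 (r = 0.93), Galectin, contig_3467 (r = 0.91), and Cytochrome c, contig_17155 (r = 0.90). For Glutaredoxin-C4 they were Cytosolic purine 5'-nucleotidase, contig_208503 (r = 0.98), ThioredoxinT (r = 0.98) and Thioredoxin contig_430042 (r = 0.98), of which all 3 had their highest level in 0d-28d library 3. Without that library these had r = 0.88, 0.79 and 0.78. The unigenes named for contig_9023 and contig_9594 were all at their lowest in 0d-28d library 3, as both members were. Without it r was 0.86, 0.73 and 0.70 for contig_9023, and 0.92, 0.90 and 0.86 for contig_9594, in the order given. These values describe the libraries, which share depth and tissue content within each, and they were picked as the highest among many.

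The wider thiol and peroxide system was read from 11 lists of unigene names, and none of its unigenes was called. The lists held 152 unigenes, 90 of them tested, among them Thioredoxin reductase 1. For the 89 that were not among the 10, edgeR gave 0 calls in 890 values over the 10 pairs, DESeq2 0 and limma 0, and 30 values, 3.37%, had an edgeR unadjusted p under 0.05. How many of the DESeq2 values lacked an adjusted p is not given here. Over all unigenes tested that share was 3.09% to 9.09% per pair, and DESeq2 called 0.275% to 0.861%. By DESeq2 57 of the 890 values, 6.404%, had an unadjusted p under 0.05. The matching DESeq2 share over all unigenes tested is not given here, so this value is not read as an excess. Glutathione peroxidases, which remove peroxides with glutathione, had 2 of 6 tested unigenes positive in 0d-28d against control, with a median log2 change of -0.31. Their most abundant unigene, contig_1215, was lowest in 0d-28d library 3 at 17.96 FPKM and highest in 0d-28d library 2 at 2303 FPKM, with a median of 1371 FPKM, above the mean of each peroxiredoxin. Catalase and superoxide dismutases, the other peroxide and superoxide removers, had 10 of 19 positive and a median of 0.06, and Catalase contig_1132 was lowest in 0d-28d library 3 at 26.1 FPKM and highest in 0d-7d library 2 at 261 FPKM. Glutathione S-transferases, which couple glutathione to foreign compounds, had 3 of 6 positive there and 6 of 6 positive in 0d-7d against control, with medians of 0.21 and 0.70. Microsomal glutathione S-transferase (contig_14041) was the most abundant of them at a mean of 31.3 FPKM.

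Among the suppliers and other users of the system, the 12 tested unigenes for NADPH sources had medians between -0.00075 and 0.26 against control, led by Malic enzyme (contig_21009) at a mean of 50.1 FPKM. The 4 glutathione synthesis unigenes, led by Glutamate--cysteine ligase regulatory subunit (contig_76921) at 13.4 FPKM, had medians between -0.25 and 0.23. The 21 protein disulfide-isomerases, which form and rearrange disulfides in secreted proteins, had medians between -0.25 and 0.36. The most abundant of them, contig_47361, was at 0 in control library 1 and at 754 FPKM in 30d-7d library 1. Methionine sulfoxide reductases, which thioredoxin recharges, had 2 tested unigenes with medians between -0.05 and 0.20, the more abundant being contig_38218 at 20.3 FPKM. Ribonucleotide reductase, which makes deoxyribonucleotides with electrons from thioredoxin or glutaredoxin, had 2 tested unigenes, with medians against control of -1.44 in 0d-7d, -0.87 in 30d-7d, -0.26 in 0d-28d and -1.69 in 30d-28d. Of these contig_98762 was highest in 0d-28d library 3 at 34.1 FPKM beside a median of 3.47 FPKM. Thioredoxin domain-containing proteins had 3 tested unigenes, of which contig_84238 was also highest in that library at 67.1 FPKM beside a median of 13.7 FPKM. The 14 tested redoxins outside the 10 had medians of 0.50 to 0.74 against control with 8 to 12 of 14 positive, none of them past the threshold. Thioredoxin and glutathione reductases with sulfiredoxin had 3 tested unigenes, Thioredoxin reductase 1 among them, with medians of -0.67 to 0.47 against control. All 3 were highest in 0d-28d library 3, as were 11.9% of all unigenes tested. Over all unigenes tested, the medians against control lay between -0.04 and 0.00034. The kinase ASK1 and the regulators Keap1 and Nrf2, which thioredoxin or oxidants act on in mammals, were not analysed here. The patterns used (apoptosis signal-regulating kinase, Keap1 and nuclear factor erythroid 2-related factor) matched 0 unigene names. Unigenes of these proteins under other names would not have been found.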

How the data were processed

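RNA-seq was measured in 15 libraries, 3 in each of 5 triplets. The authors deposited, per the file headers, a table of read counts and FPKM for 241846 unigenes with a best protein match. Aligner, counter, assembler and FPKM formula: not given in the sources used here. For members with at least 10 reads, FPKM was 0.716 to 2.28 times the reads divided by unigene length and library total at the same scale, so it is not that plain ratio.

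Counts as deposited were tested with edgeR 4.0.16 (R 4.3.3) by quasi-likelihood F tests, with TMM scaling and filterByExpr at a minimum count of 10 and a total of 15, in 1 fit of 5 triplets with 10 residual degrees of freedom. The p-values were two-sided and adjusted by Benjamini-Hochberg over all 101090 unigenes tested, with a threshold of 0.05. The common biological coefficient of variation was 0.923. A standard error is the log2 change divided by the square root of F, and 95% intervals use the t distribution with the fit's degrees of freedom. The procedure was first checked on simulated data. Alternatives were DESeq2 1.42.0, limma 3.58.1 on log2(FPKM + 1) and log2(FPKM + 0.1), other scaling, no filter, a replicate block, only the 6 libraries compared, and leaving out each library. Correlations used 100000 permutations. Of the 10 members, the neighbours in rank and the most abundant tested unigene of each list were named by rule, and contig_16509 and the marker unigenes were named after their values were seen. The members, lists and tests were chosen with earlier results of these data known, and some names were removed from the gut, germ and muscle lists after the table was seen.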

Additional observations from a re-analysis of the deposited data

How the results depend on the processing

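The count of members called stayed at 0 in each of the 12 comparisons under all 22 alternatives run: 7 other settings (the fit of 6 libraries applies to the 10 pairs only) and 15 fits leaving out 1 library, so its range was 0 to 0. Not every such count is out of 10. DESeq2 gave no adjusted p to ThioredoxinT and Glutaredoxin-C4. The fit of 6 libraries tested 8 members in 0d-7d against control, for example. Replicate numbers did not pair the libraries: deviations of same-numbered libraries correlated at a mean of -0.058 (-0.33 to 0.32, 3 of 30 pairs over 0.1). Differently numbered libraries of separate triplets correlated at a mean of 0.029 (-0.24 to 0.37, 22 of 60 pairs over 0.1). Of the 15 libraries, 3 correlated best with their own number. With the replicate block, edgeR called 0 members in every comparison. Of 2185 alternative log2 changes, 2135 moved by less than their SE and 50 by more. ThioredoxinT held 19 of these and Glutaredoxin-C4 16, and the rest were 4 each for Thioredoxin contig_16508, Thioredoxin reductase 1 and Peroxiredoxin 6 contig_56297 and 3 for Peroxiredoxin 5 contig_43249. Thioredoxin contig_9594 in 0d-28d against control ran from -1.60 to -0.85 when 1 library was left out. ThioredoxinT in the same comparison ran from -5.79 to 11.96. As alternatives chosen after seeing the data, the ranking that chose the members was repeated: reads scaled for length and depth kept all 10, while the median, or the mean without 0d-28d library 3, kept 8. ThioredoxinT and Glutaredoxin-C4 had 0 reads in 5 and 3 libraries, so their log2 changes have the widest intervals of the members.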
